A study of Mus musculus with 13 samples.

Results

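Cerebral meninges of 9 control mice are described here on their own, without a comparison of groups. They are the 9 of 13 arrays of the series whose titles call them control cerebral meninges; the other 4, from mutant littermates, were left out of every fit. All 9 mice were newborn pups (strain C57BL6 in the labels, backcrossed to C57BL/6J per the study's methods) of 1 litter, and each gave 1 array, so differences between mice and between hybridisations cannot be told apart. The mutants carried Pdgfc-/- together with Pdgfra GFP/+, a null allele of Pdgfc on both chromosomes and a GFP insertion in 1 copy of the receptor gene Pdgfra. The control group pooled every other genotype of the litter. With 2 normal copies of Pdgfra these were Pdgfc+/+, Pdgfc+/- or Pdgfc-/-, and with Pdgfra GFP/+ they were Pdgfc+/+ or Pdgfc+/-. Which pup had which of these genotypes is not given in the sources used here, so this is a mixed control group rather than a wild-type one. The tissue was freely dissected from the newborn cerebrum and was not sorted, and in such bulk RNA fewer cells of a type and less RNA per cell cannot be told apart.

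The meninges are the membranes that wrap the brain. The pia lies on the basement membrane at the brain surface, the arachnoid forms a tight cellular sheet outside it, and the dura lines the skull. Fibroblasts make most of the tissue and secrete matrix, retinoic acid and growth factors that reach the developing cortex, while large vessels with pericytes and smooth muscle run through it and resident macrophages sit along them.

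Transcripts were measured as probe set intensities on Affymetrix Mouse Gene 1.0 ST arrays and are given below as the lowest, median and highest intensity of the 9 arrays, with levels on the scale log2(intensity + 16). Probes differ in affinity, so genes were compared by the percentile of their mean log2 level among 19938 genes and not by ratios. The background level was set from 1230 olfactory, vomeronasal and taste receptor genes, which a brain covering is not known to use: the 95th percentile of their mean level corresponded to an intensity of 57.6. Of all genes, 12643 lay above it (63.4%). The arrays differed in brightness, with a median gene intensity between 74.9 and 122.9, and correlated at r = 0.951 to 0.992 over the genes above background (36 pairs).

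The genes that define meningeal fibroblasts were among the brightest of the tissue. All 14 markers of the fibroblast list lay above background, at a median percentile of 97.9, and 11 of them were in the top 5% of genes. Decorin (Dcn), a small proteoglycan that binds collagen fibrils, had intensities of 4947, 6148 and 7153, and Col1a2, a chain of type I collagen, 3777, 4528 and 5428. Fn1, fibronectin, followed with 2822, 3475 and 3943, and Col3a1, a fibrillar collagen, with 2303, 2821 and 3593. The dimmest markers, the transcription factors Osr1 (609, 655 and 838) and Twist1 (396, 524 and 613), still ranked at percentiles 92.1 and 87.6. The lowest of the 9 arrays was above the background intensity for each of these 6 genes.

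**Figure D1:**
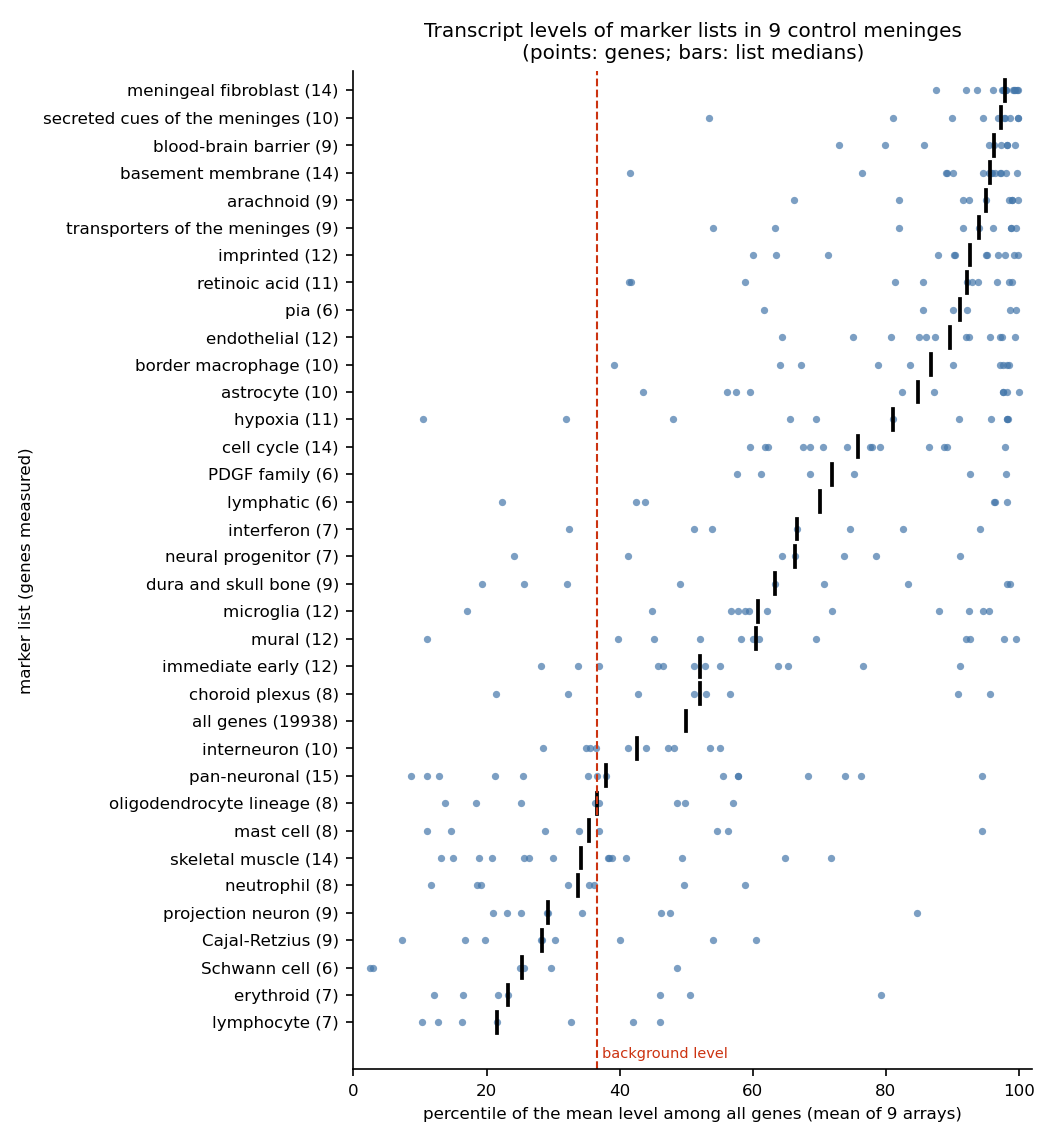
Each point is 1 gene of a marker list, placed by the percentile of its mean level among all genes over the 9 control arrays; black bars are list medians and the dashed line is the background level. Fibroblast genes (median percentile 97.9) stand at the top and lymphocyte genes (median percentile 21.6) at the bottom.

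Housekeeping transcripts and products of the fibroblast and arachnoid lineage shared the top ranks. Eef1a1, the translation elongation factor that brings aminoacyl-tRNA to the ribosome, was the brightest gene (9166, 10990 and 13788). Baiap2l1, an adaptor of membrane and actin remodelling, came next (9117, 10161 and 14724), followed by Gja1 (6966, 8118 and 9248), which encodes the gap junction protein connexin 43. The other genes of the top 25 were Actb, COX2, Rplp1, Fth1, Apoe, Rpl10, Rn7sk, Rpl9, Ppia, Ccnd2, Rpl23, Dcn, Rps7, Itm2a, Ptn, Ptgds, Rplp0, Rps14, Rps2, Rps6, Tpt1 and ND3, with medians between 5246 (ND3) and 7773 (Actb). COX2 and ND3 are genes of the mitochondrial genome. Cytosolic ribosomal proteins took 36 of the 100 brightest places with 71 genes measured, which are 0.356% of all genes. Apoe, a lipid carrier (5761, 6665 and 8403), Ptn, the growth factor pleiotrophin (4757, 5979 and 6725), and Ptgds, the prostaglandin D synthase of the arachnoid (5464, 5893 and 6907), were secreted products among them.

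Markers of the inner membranes and their signals were nearly as bright. The arachnoid list had a median percentile of 95.2, with all 9 measured genes above background. Aldh1a2, which makes retinoic acid, had 2010, 2354 and 2737, and Cldn11, a tight junction protein of the arachnoid barrier, 1864, 2334 and 2917. Crabp2, which carries retinoic acid inside the cell, had 1595, 1972 and 2328, and Cdh1, E-cadherin, 732, 1018 and 1223. Dpp4, Slc22a2, Slc47a1 and Crym had median intensities of 762, 659, 388 and 190. In the pia list (6 of 7 genes measured, median percentile 91.2), the GABA and taurine transporter Slc6a13 led with 3591, 4159 and 4447. Cxcl12, the chemokine that guides migrating neurons below the pia, had 1578, 2007 and 2635, and Rdh10, Lama1, S100a6 and Ngfr had medians of 760, 617, 431 and 188.

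The retinoic acid list (11 genes, median percentile 92.3) had all its measured genes above background. Below Aldh1a2 and Crabp2 stood Stra6, the retinol uptake receptor (955, 1236 and 1562), and Rarb, a receptor that is itself induced by retinoic acid (724, 845 and 994). The lowest were Cyp26b1, which degrades retinoic acid (45.0, 74.0 and 103), and Aldh1a3, another synthesising enzyme (43.2, 65.4 and 110). Cyp26b1 thus sat at percentile 41.8, and Aldh1a2 was in the top 5% of genes.

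Growth factors that the meninges are known to release lay at a median percentile of 97.3. Igf2, the imprinted insulin-like growth factor, had 4103, 4947 and 5815. Bmp4 (1347, 1567 and 1912), Bmp7 (1281, 1584 and 1822) and Bmp6 (1089, 1300 and 1524) were all in the top 5% of genes. Mdk, midkine, Wnt5a and Vegfa had medians of 870, 594 and 392, and Fgf2 was the dimmest (94.1, 107 and 139). Of 12 measured imprinted genes all lay above background (median percentile 92.7), led by Igf2, the cell cycle inhibitor Cdkn1c (2583, 3006 and 3300), Grb10 (1333, 1640 and 1758) and Ndn (1032, 1331 and 1412). Peg10 and Dlk1 were the dimmest, with medians of 176 and 148.

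Basement membrane genes, whose products form the sheet between pia and brain, had a median percentile of 95.7. Sparc, a collagen-binding matrix protein, had 4155, 4624 and 5759. The linker protein nidogen (Nid1) had 1472, 1761 and 2108, and the laminin chain Lamb1 1019, 1488 and 1906. Nid2 had 1141, 1408 and 1620. The perlecan gene Hspg2 (207, 305 and 354) and the laminin chain Lama5 (46.6, 71.3 and 90.3) were dimmest. Of 44 collagen genes 40 lay above background and 5 were in the top 5% of genes: Col1a2, Col3a1, Col1a1, Col4a2 and Col6a1. Transporters at the meningeal barrier had a median percentile of 94.0. After Slc6a13 came the amino acid transporter Slc6a20a (1875, 2234 and 2444) and the organic anion transporters Slc22a6 (1732, 2143 and 2387) and Slc22a8 (940, 1118 and 1403). Slc13a3, Slc22a2, Slc47a1, Slco1a4 and Slc16a11 had medians of 841, 659, 388, 166 and 108.

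Vessel genes were bright for the lining and uneven for the wall. All 12 endothelial markers lay above background (median percentile 89.7). Claudin 5 (Cldn5), the main tight junction protein of brain vessels, had 2538, 3234 and 5384, and the VEGF receptor gene Kdr 1080, 1307 and 2383. Cdh5, VE-cadherin, had 1153, 1378 and 1847, and the angiopoietin receptor Tek 767, 964 and 1688. Flt1 (201, 243 and 411) and Robo4 (89.8, 167 and 336) were the dimmest. The 9 genes of the blood-brain barrier list, which endothelial cells switch on in brain tissue, ranked higher, at a median percentile of 96.3. Among them were the glucose transporter Slc2a1 (1186, 1645 and 3104), the amino acid transporters Slc38a5 (1297, 1601 and 3009) and Slc7a5 (1091, 1335 and 2480), the efflux pump Abcb1a (806, 1118 and 1655) and the thyroid hormone transporter Slco1c1 (662, 876 and 1959). The lipid transporter Mfsd2a, the WNT effector Lef1 and occludin (Ocln) had medians of 401, 339 and 214.

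In the mural list, the genes of pericytes and smooth muscle, 11 of 12 lay above background at a median percentile of 60.6. Vtn, vitronectin (3748, 4061 and 4744), Rgs5 (1196, 1409 and 2576), the PDGF-B receptor Pdgfrb (577, 742 and 932) and smooth muscle actin Acta2 (384, 768 and 1195) led it, and Cspg4 (40.4, 72.4 and 91.9) and Cnn1 (8.36, 19.8 and 37.3) closed it. The lymphatic list split: Lyve1 (1353, 1867 and 1983), Foxc2 (1017, 1216 and 1435) and Pdpn (797, 1191 and 1491) were bright. Prox1, the transcription factor that defines lymphatic endothelium, lay below background (24.3, 31.6 and 48.2), and Flt4 (46.6, 69.2 and 102) and Itga9 (44.6, 78.7 and 102) just above. Lyve1 is also made by border macrophages, and Foxc2 and Pdpn by other meningeal cells.

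Among immune cells the resident macrophages stood out. Their list had a median percentile of 86.9 with all 10 genes above background. F13a1, a coagulation factor chain (1538, 2129 and 2265), Pf4, a chemokine (1235, 1517 and 1787), and the mannose receptor Mrc1 (1065, 1386 and 1612) were brightest with Lyve1. Stab1, Cd163, Cbr2, Folr2, Ms4a7 and Cd209f had medians of 616, 427, 317, 208, 177 and 75.2. The microglia list lay lower, at a median percentile of 60.8, although 11 of 12 genes were above background. Its brightest genes, Olfml3 (964, 1042 and 1090), Cx3cr1 (667, 949 and 1095), Csf1r (602, 734 and 865) and Fcrls (397, 526 and 641), are in part shared with other cells, and Gpr34 and Siglech had medians of 79.5 and 26.5. Mast cell, neutrophil and lymphocyte lists had median percentiles of 35.4, 33.8 and 21.6, with 4 of 8, 2 of 8 and 2 of 7 genes above background. Over all genes 63.4% lay above it. For T cells, Cd3e had a median of 102 and Cd3g of 18.6, and for B cells Cd79a had 18.8.

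Neuronal transcripts were mostly dim. Of 15 pan-neuronal genes 8 lay above background, against 63.4% of all genes (median percentile 37.9). Gap43, a growth cone protein, was the brightest (747, 822 and 1273), followed by Syp (202, 279 and 365), Stmn2 (151, 232 and 624) and Elavl3 (104, 184 and 482). The neurofilament gene Nefl (6.79, 23.6 and 30.8) and Elavl4 (7.70, 15.3 and 37.6) were at the bottom. Interneuron, projection neuron and Cajal-Retzius lists had 6 of 10, 3 of 9 and 3 of 9 measured genes above background, beside the same 63.4%. Neurod2, a transcription factor of cortical projection neurons, was the brightest of its list (258, 465 and 618), and the vesicular glutamate transporter gene Slc17a7 lay below background with a median of 39.2. Reln, the signal secreted by Cajal-Retzius cells under the pia, had 73.4, 104 and 193, and Ndnf 90.2, 151 and 214.

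The astrocyte list was bright, at a median percentile of 84.9 with 10 of 10 genes above background, but its members divided. Gja1, Fabp7 (1259, 1682 and 2574), Slc1a3 (1140, 1541 and 1737) and Gjb6 (1182, 1560 and 1758) were in the top 5%, and meningeal fibroblasts are also known to make connexins. S100b and Aldoc had medians of 511 and 333. The more restricted markers lay lower: Aldh1l1 had 102, 129 and 215, Slc1a2 98.8, 132 and 178, Aqp4 83.3, 118 and 234, and Gfap 62.2, 70.8 and 93.5. Oligodendrocyte, Schwann cell and skeletal muscle lists had median percentiles of 36.6, 25.4 and 34.2. In the choroid plexus list Kcnj13 (904, 1021 and 1191) and Aqp1 (488, 624 and 789) were bright, and its secreted marker transthyretin (Ttr) was not (71.2, 114 and 168). Of the dura and skull list, the matrix protein gene Mgp (1635, 1964 and 2745) and the gene Fxyd5 (1438, 1732 and 2220) were bright, and the bone genes Sp7, Ibsp and Phex lay below background with medians of 56.5, 41.1 and 32.5. Of 16 erythroid genes 7 were measured and 3 lay above background, against 63.4% of all genes. Alas2, the haem synthesis enzyme of red cells, was the brightest (217, 296 and 551).

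Genes of cell division were well above background. All 14 measured cell cycle genes lay above background (median percentile 75.9), led by the replication clamp Pcna (1310, 1628 and 1998), the kinase Cdk1 (430, 563 and 788), the topoisomerase Top2a (387, 550 and 772) and the cyclin Ccna2 (372, 456 and 698). Tyms and Cenpf were the dimmest, with medians of 161 and 158. Beside this count and those below, 63.4% of all genes lay above background. Of 7 neural progenitor genes 6 lay above background (median percentile 66.4): Nes, Emx2, Hes5, Sox2, Neurog2 and Pax6 had medians of 602, 327, 258, 163, 190 and 67.4, and Eomes, which marks intermediate progenitors, lay below with 36.0. Of 11 genes induced by low oxygen 9 lay above background (median percentile 81.1), led by the glycolytic enzymes Ldha (1494, 1857 and 2143) and Pgk1 (1476, 1821 and 1859), while Car9, the most restricted of them, lay below (10.4, 19.8 and 30.4). Immediate early genes, which rise within minutes of handling or stress, had a median percentile of 52.1, with 10 of 12 above background. Jun (425, 637 and 877) and Dusp1 (169, 289 and 362) led, and Fos had 49.2, 104 and 123. Of 7 interferon genes 6 lay above background (median percentile 66.7), led by the surface protein Bst2 (609, 852 and 1182).

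The PDGF family is the system the litter's alleles affect. Pdgfra, the receptor of meningeal fibroblasts, had 1039, 1921 and 2255 (percentile 98.1), and Pdgfrb ranked at percentile 92.7. The ligand genes were dimmer, with medians of 269 for Pdgfd, 216 for Pdgfa, 151 for Pdgfb and 151 for Pdgfc. Pdgfc ranged from 5.88 to 275. Its lowest array was control 2, and the genotype of that pup is not given.

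Most dim genes and few bright ones rose with array brightness. Brightness was the median log2 level of the same genes that were tested. That rises outnumber falls is therefore in part fixed in advance. In a linear model of each gene on array brightness (limma, Benjamini-Hochberg adjusted p under 0.05), 11921 genes (59.8%) were higher on brighter arrays and 2 (0.01%) lower: COX2, with a slope of -0.75 (standard error 0.30, adjusted p = 0.0414), and the receptor gene Olfr190, with a slope of -0.61 (standard error 0.22, adjusted p = 0.0291). The median slope was 0.98 in the dimmest 4984 genes and 0.32 in the brightest 4985, of which 17.2% were higher on brighter arrays. Taking brightness from 8 reference genes in place of the median gene left 0 genes in either direction. Variation was described on residuals, the level of each gene after its own slope on the median-based brightness was removed. This lowered the median standard deviation (SD) over the 9 arrays from 0.211 to 0.160 (log2) among the genes above background.

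After that allowance 818 of the 12643 genes above background (6.47%) had an SD over 0.3, 76 over 0.5 and 3 over 1 (log2). The threshold of 0.3 was chosen after the values were seen. Xist, the RNA that silences 1 X chromosome in females, had the widest spread (SD 2.81; 4.78, 743 and 1020): 3 arrays lay at or below 8.73 and the other 6 at or above 536. The Y-linked genes Eif2s3y (1.64, 2.62 and 515), Uty (1.18, 3.26 and 257) and Kdm5d (8.98, 20.8 and 195) also spread widely, with means below background. Pdgfc came second (SD 1.22) and Cxcl10, a chemokine gene induced by interferon, next (SD 1.07; 34.4, 49.6 and 509). Cpa3, a mast cell protease (SD 0.935; 24.8, 142 and 384), and Dcx, a microtubule protein of migrating neurons (SD 0.801; 48.0, 111 and 436), followed. The next 20 by spread were 1700001O22Rik, Mpped1, Rps3a1, Usp17ld, Tubb3, Tmem247, Sry, Gpm6a, Npn2, Crmp1, Agpat4, Svs5, Adam24, Mmrn1, Npm2, Syt4, Vwa3b, Mapt, 6530411M01Rik and Snord57, with SDs from 0.612 to 0.795.

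The spread differed between the lists. Of 12 endothelial genes 11 had an SD over 0.3, with a list median of 0.431, and 8 of 9 blood-brain barrier genes did, with a median of 0.427. Cdh5 (SD 0.208) and Abcb1a (SD 0.277) were the members under 0.3. All 6 interferon genes above background were over 0.3 (median 0.430), as were 5 of 8 pan-neuronal genes (median 0.365) and 6 of 14 cell cycle genes (median 0.287). The fibroblast, basement membrane and meningeal transporter lists had medians of 0.155, 0.154 and 0.135, close to or below the median of all genes, and 0 of 14, 0 of 14 and 1 of 9 members over 0.3. The basement membrane genes Col4a1 (SD 0.296) and Col4a2 (SD 0.295) lay just under 0.3. Without control 1, 4, 5, 7, 8 or 9, 2 of 14 basement membrane genes were over 0.3. Without control 2, 4, 5, 7, 8 or 9, 1 of 14 fibroblast genes was. Border macrophage genes had a median of 0.211 with 2 of 10 over 0.3, the haemoglobin scavenger receptor Cd163 (SD 0.321) and the lectin Cd209f (SD 0.463). Mast cell genes spread widely on few members: Cpa3, Hdc (SD 0.353) and Cma1 (SD 0.461) of the 4 above background were over 0.3. After quantile normalisation, which gives all arrays the same set of values, the median spread was lower for the endothelial list (0.307, with 7 of 12 over 0.3) and the barrier list (0.318, with 5 of 9 over 0.3), and 0 of 14 cell cycle genes were over 0.3, beside 7.06% of all genes. Without control 6, 0 of 14 cell cycle genes were over 0.3, and without control 2, 5 of 9 barrier genes were.

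**Figure D2:**
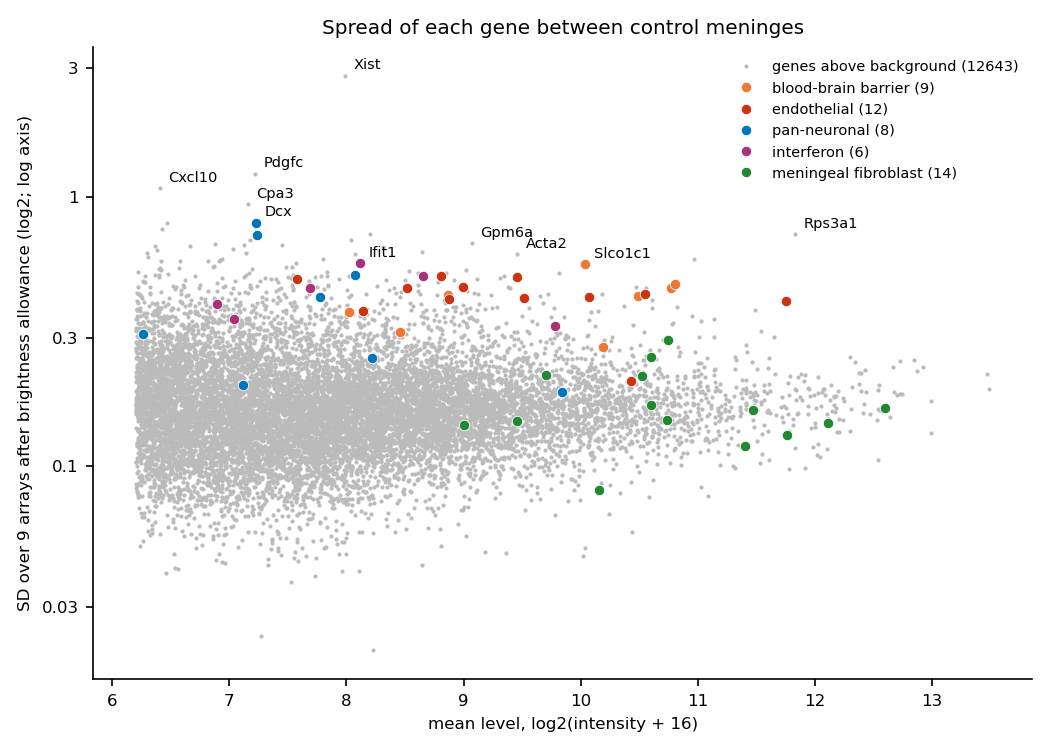
Each grey point is a gene above background, with its mean level on the x axis and its SD over the 9 arrays after the brightness allowance on the y axis (log scale); coloured points are members of 5 marker lists. Endothelial, barrier and interferon genes sit above the bulk at SDs near 0.43, and fibroblast genes within it at a median of 0.155.

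The 150 most variable genes above background fell into 9 groups of at least 4 genes whose residuals moved together (average linkage, 1 minus Pearson r, divided at 0.3), which held 127 of them. The groups were formed from these same residuals and are given as a description without a test.

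The largest group was vascular in content, with 41 genes and a median correlation of 0.928 between members. Its 8 most variable genes were Mmrn1 (188, 264 and 639), a glycoprotein of endothelial cells and platelets, Snord57, Rassf9, Slco1c1, Cbln2, Adh1, Car2 and Rasip1. It also held 5 endothelial markers (Emcn, Esam, Robo4, Pecam1 and Tie1), 3 barrier genes (Slco1c1, Slc38a5 and Slc2a1) and the pericyte channel gene Kcnj8. Controls 2 and 6 were the high arrays, with group means of 0.75 and 0.68 (log2 residual), and the other 7 lay between -0.44 and 0.09. When each array's median was subtracted in place of the regression, 22 of the 41 genes were among the 150 most variable and all 22 fell into 1 group. After quantile normalisation 3 of the 41 were among the 150 most variable, and 0 of them fell into a group. With reference genes subtracted or with no allowance, 0 of the 41 were among the 150 most variable.

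A group of 20 genes was neuronal in content, with a median correlation of 0.911. Its 8 most variable genes were Xist, Dcx, Mpped1, Tubb3, Gpm6a, Crmp1, Syt4 and Mapt. Dcx, the neuronal tubulin gene Tubb3 (36.7, 123 and 439) and the axonal microtubule protein gene Mapt (26.9, 48.0 and 183) belong to young neurons, as do the group members Stmn2, Stmn3, Elavl2, Bcl11a and Sox11. Of the members 3 are X-linked, Xist, Dcx and the histone demethylase gene Kdm6a, and the 3 arrays with Xist at or below 8.73 were the 3 with the lowest mean of the other 17 genes. Over all 20 genes, Xist included, control 9 had the highest group mean (0.81) and control 5 the lowest (-0.996). This group was found again under other allowances: 17 of 20 genes shared a group after quantile normalisation, 16 after the median was subtracted, 16 with no allowance and 14 with reference genes.

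Another group of 7 genes held markers of astrocytes and radial glia: the brain proteoglycans Ncan (290, 385 and 777) and Bcan (152, 176 and 370), the water channel Aqp4, Mlc1 (92.2, 101 and 219), the receptor phosphatase Ptprz1, Phyhipl (65.8, 94.3 and 190) and Mmd2 (80.2, 105 and 174). Its group means were high in control 3 (0.62), control 4 (0.60) and control 9 (0.34) and negative in controls 2 and 5 to 8. Glial and neuronal group means had the same sign in controls 3, 5, 8 and 9 and opposite signs in controls 1, 2, 4, 6 and 7: control 2 stood at 0.55 for the neuronal group and at -0.31 for the glial group, and control 4 at -0.10 and 0.60. All 7 glial genes again shared a group after quantile normalisation and after the median was subtracted, and 0 of the 7 were among the 150 most variable genes with reference genes subtracted or with no allowance.

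Interferon-induced genes formed a group of 4. Ifit1 (123, 249 and 465) and Ifit3 (237, 381 and 649) encode antiviral proteins that bind foreign RNA, Iigp1 (85.4, 125 and 237) a GTPase against intracellular pathogens, and Usp18 (98.2, 172 and 293) an enzyme that removes ISG15 and dampens interferon signalling. Controls 1 and 9 were highest, with group means of 0.67 and 0.54, and control 8 was lowest (-0.75). This group was not found under the other allowances: 1 of the 4 genes was among the 150 most variable with the median subtracted, 2 after quantile normalisation and 0 with reference genes or no allowance, and no 2 of them shared a group. The promoters of Ifit1 and Ifit3 are shown because both hold letters of the interferon response element, which the factors activated by interferon are known to bind. They run from 250 bases before to 50 bases after the gene start (RefSeq, GRCm38.p6), Ifit1 at chr19:34640639-34640938 and Ifit3 at chr19:34583279-34583578, both on the + strand. Capitals mark each match to the letters GAAANNGAAA on either strand; 2 of the 4 genes were found in the RefSeq promoter table.
Ifit1: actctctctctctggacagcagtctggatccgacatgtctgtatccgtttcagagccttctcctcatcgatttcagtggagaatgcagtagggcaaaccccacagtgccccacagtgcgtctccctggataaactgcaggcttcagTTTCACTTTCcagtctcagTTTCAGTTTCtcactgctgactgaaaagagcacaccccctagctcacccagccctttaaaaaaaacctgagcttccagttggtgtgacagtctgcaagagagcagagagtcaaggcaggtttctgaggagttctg
Ifit3: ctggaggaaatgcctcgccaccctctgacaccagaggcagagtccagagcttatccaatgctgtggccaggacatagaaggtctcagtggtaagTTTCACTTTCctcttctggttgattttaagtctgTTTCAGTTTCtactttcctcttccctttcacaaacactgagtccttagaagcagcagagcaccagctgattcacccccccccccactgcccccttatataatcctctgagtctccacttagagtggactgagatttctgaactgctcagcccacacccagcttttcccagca
Each window held 2 matches. Of 32851 promoter windows of the same length, 3.44% held at least 1 match and 0.225% at least 2; a match is a run of letters and not a measured binding site.

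The other groups had no shared cell type among their known members. One of 29 genes was led by Cxcl10, Tmem247, Sry, Npn2, Svs5, Adam24, Npm2 and Vwa3b. It mixed genes named for testis, skin or milk products, such as Npm2, Ivl, Sprr4, Lce1b and Csn1s1, and its median level was at percentile 50.9; Ivl, Sprr4, Lce1b and Csn1s1 were picked after their values were seen. Control 1 was its highest array (0.92), followed by control 7 (0.57). Of the 8 leading genes, Cxcl10 had a slope on array brightness of -0.79. The others had slopes from 2.95 (Npm2) to 4.59 (Npn2), against a median of 0.74 over all genes. With the median subtracted or after quantile normalisation 27 of the 29 genes shared a group, of 66 and 81 genes. With reference genes or no allowance 28 did, in groups of 125 and 122. Sry lies on the Y chromosome but was placed in this group, with intensities of 36.1, 341 and 483. Its residuals did not divide the arrays as those of Xist did. Sry stood at 1.11 in control 1 and 0.87 in control 7, and at 0.04 and 0.05 in controls 5 and 8. Xist stood at -3.71, -3.29 and -3.44 in controls 1, 5 and 8, and at 1.08 in control 7. What this Sry probe set measured was not tested. A group of 7 held Rps3a1 (1096, 4057 and 5818), Usp17ld, Gm8624, Gm5294, AY036118, Hes2 and Hoxd13, and control 1 was far below the rest (-1.19, with the other 8 between -0.19 and 0.59). A group of 9 (6530411M01Rik, Olfr923, Xkr7, Zfp42, Olfr48, Sbpl, Aldh3b2, C2cd4b and Slc25a47) was lowest in control 6 (-0.95). Groups of 6 (Tmem213, Olfr767, 4930412M03Rik, Ascl5, Cntnap3 and Ppp1r32) and 4 (1700001O22Rik, Fcnaos, Cyp2c29 and 3110053B16Rik) completed the list, with median levels at percentiles 50.3 and 44.1. Receptor genes, which set the background level, were members of 3 of these groups.

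**Figure D3:**
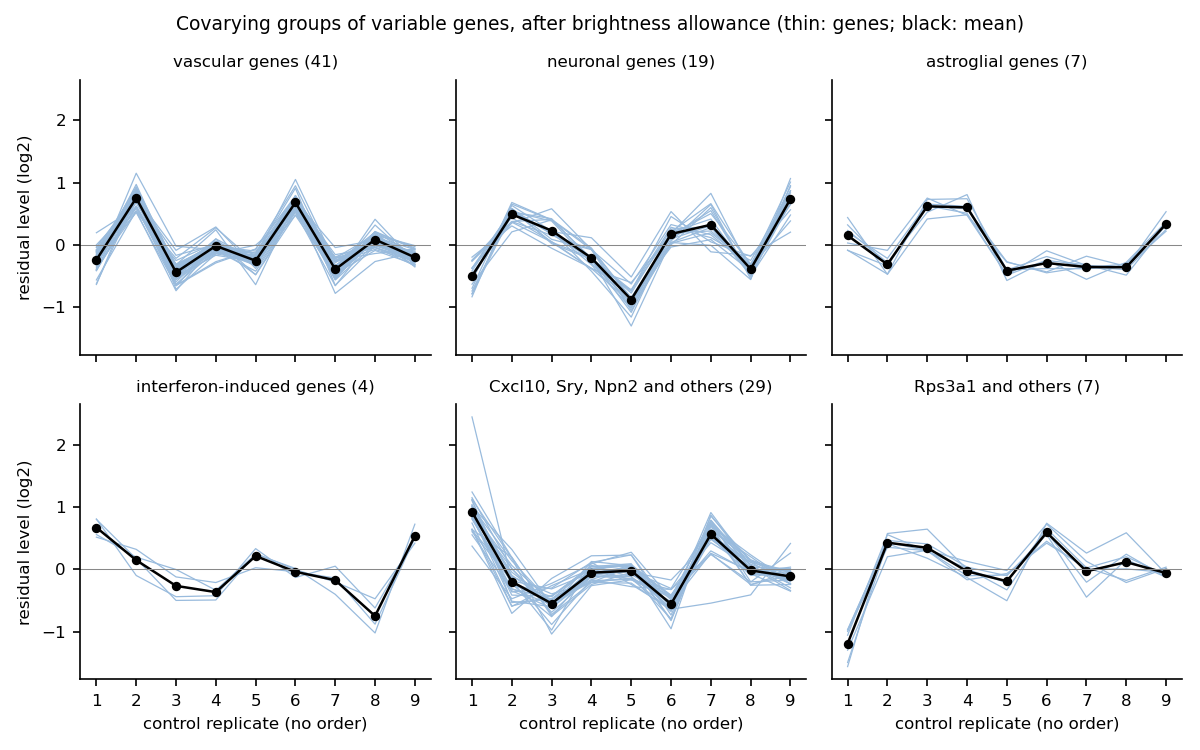
Each panel shows the residual level (log2, y axis) of the genes of 1 covarying group in the 9 control arrays (x axis, replicate numbers without order), with thin lines for genes and black points for their mean; Xist is left out of the neuronal panel for scale. Vascular genes peak in controls 2 and 6, neuronal genes are lowest in control 5, and the Rps3a1 group is low in control 1.

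Correlations between cell types were then tested on 8 marker lists, each summarised as the mean residual of its members above background, over all 28 pairs. The endothelial level ranged from -0.41 to 0.68 over the arrays and the mural level from -0.28 to 0.30. They moved together (Pearson r = 0.967, Spearman rho = 0.967, n = 9; two-sided exact permutation over all 362880 orderings, adjusted p = 0.00054 for r and 0.00463 for rho). Without the 2 arrays farthest from the endothelial median r was 0.943, and leaving out single arrays gave 0.943 to 0.977. After quantile normalisation r was 0.935 (exact permutation, adjusted p = 0.00949). With reference genes subtracted it was 0.773 and no longer passed.

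Another 5 pairs passed by r but not by rho; leaving out single arrays moved their r both ways, over a range of 0.598 to 0.966 for the 5 together. Mural and cell cycle levels had r = 0.825, endothelial and cell cycle 0.791, fibroblast and mural 0.827, fibroblast and endothelial 0.794, and endothelial and erythroid 0.908 (exact permutation, n = 9, adjusted p = 0.0464, 0.0494, 0.0464, 0.0494 and 0.0464). Without the 2 arrays farthest from the median of the first list these became 0.652, 0.540, 0.623, 0.590 and 0.337. By rho the adjusted p of each was 0.0998 or above. The erythroid level was the mean of only 3 genes above background, of 16 listed and 7 measured. Alas2, 1 of these 3, itself followed the endothelial level with a slope of 1.00. After quantile normalisation fibroblast correlated with endothelial at -0.21 and with mural at -0.33, so the direction of those 2 pairs depended on the allowance. Pan-neuronal and endothelial levels had r = 0.050 and rho = -0.15 (exact permutation, n = 9, adjusted p = 0.906), and no pair with the pan-neuronal or border macrophage list passed.

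**Figure D4:**
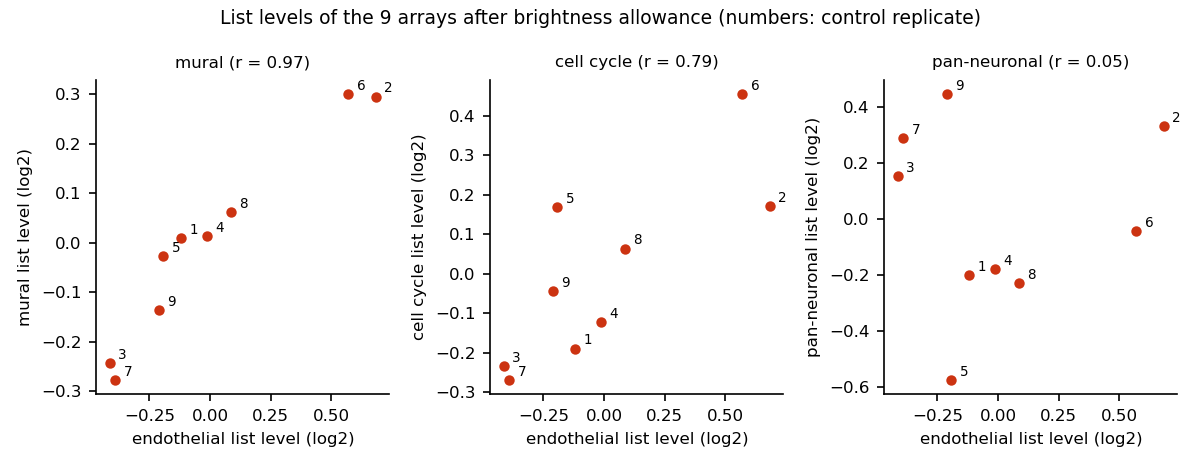
Each point is 1 control array, numbered by replicate, with its endothelial list level on the x axis and its mural, cell cycle or pan-neuronal list level on the y axis (mean log2 residual). Mural levels lie along a line with the endothelial level (r = 0.97), and pan-neuronal levels do not (r = 0.05).

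Genes outside each list were then asked whether they followed its level, by adding that level to the brightness model (limma, adjusted p under 0.05, over all genes but the list's own). With the endothelial level, 1191 genes (5.98%) moved in the same direction and 935 (4.69%) in the opposite one. After quantile normalisation these counts were 166 (0.833%) and 14 (0.0703%). Of these, 163 were called in the same direction both ways. The 4 with the smallest p were Slc35f2, a membrane transporter of the solute carrier family (slope 1.18 log2 per log2, standard error 0.10, adjusted p = 2.0e-04), the amino acid transporter Slc38a5 (slope 1.13), Crip2 (slope 1.09) and the carbonic anhydrase Car2 (slope 1.24). A slope of 1 means that a gene moved as far as the endothelial list itself. Others among the 163, picked after their values were seen, were the endothelial transcription factors Fli1, Ets1, Sox7, Sox17 and Sox18, with slopes from 0.84 to 0.98. So were the Notch ligand Dll4 of sprouting tip cells (69.5, 99.7 and 190; slope 0.91), the BMP9 receptor Acvrl1 (slope 0.73), the venular chemokine receptor Ackr1 (slope 0.90) and Pdgfb (105, 151 and 239; slope 0.81), which endothelial cells secrete to recruit pericytes. Of the 935 genes in the opposite direction 270 lay above background and 128 were receptor genes, against 1168 and 3 of the 1191 in the same direction and a share of receptor genes of 6.17% over all genes. The 4 of the opposite direction with the smallest p were Gucy2c, Olfr48, 5730460C07Rik and Sbpl. Both counts together (2126) came to 3814 without control 1, 278 without control 2, 1312 without control 5, 415 without control 6, 761 without control 7 and 1366 without control 8.

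Barrier genes moved by about as much as the endothelial list itself. All 8 barrier genes outside the endothelial list were called in the same direction, with a median slope of 1.01 against 0.04 over all genes. The share of all genes called in the same direction was 5.98%, and 0.833% after quantile normalisation. With reference genes subtracted it was 9 of 19926 genes. Without controls 2, 5, 6 and 7 it was 201, 769, 242 and 480 genes. In the opposite direction the share was 4.69%. After quantile normalisation Slc2a1, Mfsd2a, Slco1c1, Slc7a5, Ocln and Slc38a5 were called, 6 of 8, with a median slope of 1.02. Leaving out single arrays kept 7 or 8 of 8, and with reference genes subtracted the median slope was 0.99 with 0 of 8 called. Of 12 mural genes, Pdgfrb, Rgs5, Kcnj8, Abcc9, Acta2 and Notch3 were called and Rgs5 and Kcnj8 also after quantile normalisation, while leaving out single arrays gave 2 (without control 2) to 6, with 3 each without control 6 and control 7. Of 14 cell cycle genes 8 were called, among them the proliferation marker Mki67 and the mitotic kinases Cdk1, Aurkb, Bub1 and Plk1; 0 were called after quantile normalisation or without control 6, 1 without control 2 and 2 without control 7. Of 14 basement membrane genes 7 were called, including the type IV collagen genes Col4a1 and Col4a2, and 0 after quantile normalisation; the count was 2, 4, 1 and 3 without controls 2, 5, 6 and 7. In the fibroblast list 2 of 14, Pdgfra and Tbx18, were called, with 0 after quantile normalisation, and in the border macrophage list 0 of 10. In the pan-neuronal list 2 of 15, Rbfox3 and Scg2, were called in the opposite direction, with 0 after quantile normalisation.

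**Figure D5:**
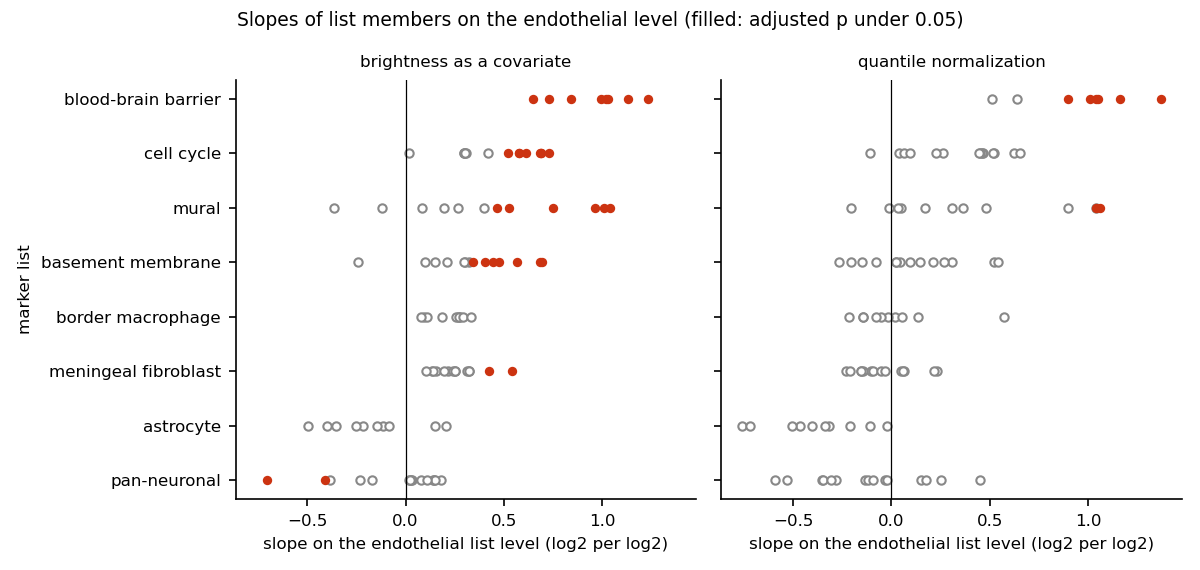
Each point is 1 member of a marker list, with its slope on the endothelial list level on the x axis (log2 per log2), with brightness as a covariate on the left and after quantile normalisation on the right; filled points had an adjusted p under 0.05. All 8 barrier genes lie to the right of 0 in both panels, with median slopes of 1.01 and 1.02.

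The mural level was followed by 1052 genes in the same direction (5.28%) and 685 in the opposite one (3.44%), and by 78 (0.391%) and 7 (0.0351%) after quantile normalisation, with 75 of the first kind called both ways. The leading 4 were Sox18, Mcam, a pericyte and endothelial adhesion protein, Esam and Tie1 (slopes 1.92, 1.83, 2.23 and 2.04), and the leading 4 in the opposite direction were Olfr1118, Olfr1448, Ascl5 and Wfdc3. All 12 endothelial genes were called with it, and 7 of 12 after quantile normalisation. The total of 1737 became 3353, 102, 907, 182, 452 and 929 without controls 1, 2, 5, 6, 7 and 8.

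The pan-neuronal level was followed by a short list: 37 genes in the same direction (0.186%), 33 after quantile normalisation (0.166%), 21 of them called both ways, and 0 in the opposite direction (327 genes had an unadjusted p under 0.05). Mapt (slope 1.74, standard error 0.16, adjusted p = 1.5e-04), Crmp1 (slope 1.84), a mediator of semaphorin signals, Mpped1 (slope 2.07) and Stmn3 (slope 1.59) led. Among the others, picked after their values were seen, were Neurod6 (7.51, 34.9 and 220; slope 2.44), Tbr1 (slope 1.17), Bcl11a (slope 1.30) and Zbtb18 (slope 1.60), transcription factors of cortical projection neurons, and Reln (slope 1.11); of these 5, Tbr1 and Reln were not called after quantile normalisation. Of the 9 measured genes of the projection neuron list, only Neurod6 was called both ways, and its mean level lay below background (percentile 34.3). The 3 members of that list above background had a median SD of 0.135, with 0 over 0.3. With no allowance for brightness 2282 genes followed the pan-neuronal level, and without controls 5, 8 and 9 the count was 6, 21 and 9. The pan-neuronal level was lowest in controls 5 (-0.57), 8 (-0.23) and 1 (-0.20), followed by control 4 (-0.18). Controls 1, 5 and 8 were the 3 arrays with Xist at or below 8.73, and the list includes the X-linked Dcx. A link between this level and Xist was not tested. The source of these neuronal transcripts in the dissected tissue was not tested.

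The counts of the remaining lists changed with the allowance. The fibroblast level was followed by 1880 genes (9.44%) in the same and 1227 (6.16%) in the opposite direction, and by 0 after quantile normalisation, where H2az1, Lxn and St8sia1, leading genes with slopes of 1.84, 1.97 and 2.25, had negative slopes. That total was 0 without controls 2, 4, 6, 7, 8 or 9 and 5702 without control 1. The cell cycle level was followed by 317 (1.59%) and 119 (0.597%), led by H2ax, Ect2, Anln and Cbln2 and, in the opposite direction, by Krt73, Olfr923, Pspn and 4933409G03Rik, and by 0 after quantile normalisation and without controls 6 or 7. The total of 436 was 997, 185, 689, 75, 1163, 57 and 78 without controls 1, 2, 3, 4, 5, 8 and 9. The erythroid level was followed by 333 (1.67%) and 229 (1.15%), led by Olfr344, Car4, Nostrin and Pde2a, and by 0 after quantile normalisation; its total of 562 was 1675, 19, 307, 4, 974, 342 and 332 without controls 1, 2, 4, 6, 7, 8 and 9. The skeletal muscle level was followed by 5 genes (0.0251%), Loxl4, Gm7457, Krt86, Rln3 and Olfr1042, and by 3 (0.0151%), Kdm6a, Eif2s3x and Adgrl3, in the opposite direction, and by 773 (3.88%) and 366 (1.84%) after quantile normalisation. The total of 8 was 0 without controls 1, 4 or 6 and 17, 421, 2, 1 and 19 without controls 2, 3, 5, 7 and 8. The border macrophage level was followed by 0 genes in limma (2913 had an unadjusted p under 0.05), and by 89 without control 3.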

How the data were processed

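Each array measured total RNA of the meninges of 1 newborn mouse (RNeasy kits, Affymetrix Mouse Gene 1.0 ST). The deposited values are probe set intensities on a linear scale that the authors made from raw data with PLIER; its version, background step and scaling between arrays are not given in the sources used here, and the array medians differ, so they were read as not normalised to 1 distribution. The scale log2(intensity + 16) compresses low values, and precision is limited by the 9 arrays rather than by counting error. Of 35557 probe sets, 21789 carry 1 gene symbol in the platform table, 1621 several and 12147 are not listed; 21698 were matched to the mouse annotation. A gene with several probe sets (999 genes) was represented by the one with the highest mean.

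Brightness was the array median of the log2 levels, and residuals had 7 degrees of freedom. Models used limma 3.58.1 in R 4.3.3 (lmFit and eBayes, two-sided, Benjamini-Hochberg over all genes) and were tested on simulated data, with noise drawn independently for each gene. Slopes of 0.5, 1 and 2 on the endothelial level were recovered for 10.4%, 80.6% and 98.5% of changed genes. On the pan-neuronal level these were 2.99%, 58.2% and 95.5%. The measured residuals moved together in groups, so the simulation cannot show how reliable the counts of genes that followed a list are. List correlations were computed with numpy 2.4.6 and figures drawn with matplotlib 3.10.9 in Python 3.11.15. The labels number the 9 mice as biological replicates; p-values measure the spread between these samples. The 36 gene lists, the tests and the members were chosen with earlier results of these data known. Named genes are the 25 brightest, the 25 most variable, every member of a short list (at most 10 genes) or the 4 brightest and 2 dimmest of a longer one, all members of a covarying group of 12 or fewer and otherwise its 8 most variable, and the 4 genes with the smallest p in each direction for each of 8 lists; others are said to be picked later. Alternatives were other constants (1 and 32), the mean of probe sets, other allowances for brightness (median or reference genes subtracted, quantile normalisation, none), a stricter background (99th percentile), bright genes only, an intensity trend with robust variances, brightness from reference genes, other tree settings (0.2; 300 genes) and each mouse left out. Counts of genes called both ways and list counts under each alternative were added after the data were seen. Mutant arrays were not used here.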

Additional observations from a re-analysis of the deposited data

Results flagged for a closer look

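The spread of 1 array from the other 8 was measured for 72 results (the 25 brightest genes, the 25 most variable, the 9 group means, the PDGF family and the list levels) as its gap to the nearest array over the whole range, on residuals. For 12 of them the gap passed the 95% critical value of Dixon's test for 9 samples; chance passes about 1 in 20 single groups. That share is no yardstick for these 72, since the 25 most variable genes and the groups built from them were chosen for their spread, and genes low on the same array are not independent. Control 7 was the lowest array for Ppia (0.618), ND3 (0.558), Rpl9 (0.531), Dcn (0.520) and Ptn (0.504), all of them among the 25 brightest genes. Control 1 was the lowest for Rps3a1 (0.607) and for the mean of its group (0.562), and the highest for Cxcl10 (0.593). Control 6 was the lowest for 6530411M01Rik (0.545) and for the mean of its group (0.496). Pdgfc was lowest in control 2 (0.621) and Agpat4 in control 4 (0.562).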

How the results depend on the processing

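No paired analysis was possible because the 9 arrays form 1 group in which each replicate number occurs once. The cause of the changes below was not tested. Genes higher on brighter arrays numbered 0 with brightness from reference genes and 5577 among genes above background only, and genes lower numbered 6 with a constant of 1 and 0 in both of those settings. The 76 genes with an SD over 0.5 became 152 and 39 with constants of 1 and 32, 144 with the median subtracted, 127 after quantile normalisation, 710 with reference genes and 520 with no allowance; the 3 over 1 became 5, 1, 6, 6, 13 and 11 in that order. The 9 groups became 4 after quantile normalisation, 2 with reference genes, 2 with no allowance and 14 with 300 genes, of which 269 lay in a group. Of list correlations 1 passed with a constant of 1, 1 after quantile normalisation, 0 with reference genes and 3 with no allowance.

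With the median subtracted, genes that followed a list numbered 10110 (fibroblast), 5741 (endothelial), 7749 (mural), 2338 (border macrophage), 0 (erythroid), 6535 (skeletal muscle) and 6079 (cell cycle). After quantile normalisation they were 0, 180 and 85 for fibroblast, endothelial and mural, 0 for erythroid and cell cycle and 1139 for skeletal muscle. With reference genes subtracted they were 0, 9 and 0 for the first 3, 179 (pan-neuronal), 1420 (erythroid), 13594 (skeletal muscle) and 0 (cell cycle), and with no allowance 0, 131 and 0, then 2282, 2055, 11125 and 0. A constant of 1 gave 0 (fibroblast), 17 (pan-neuronal), 261 (erythroid), 0 (skeletal muscle) and 255 (cell cycle), and 32 gave 2 (skeletal muscle) and 656 (cell cycle). The mean of probe sets gave 0 for skeletal muscle. A trend with robust variances gave 6 (border macrophage), 14 (skeletal muscle) and 798 (cell cycle), and genes above background only gave 1078 (cell cycle).

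Leaving out 1 mouse gave 12578 to 12767 genes above background, 9984 to 11810 higher and 1 to 7 lower on brighter arrays, 54 to 99 with an SD over 0.5 and 2 to 4 over 1, 5 to 10 groups with 124 to 138 genes, and 1 to 8 correlations. Followers ranged from 0 to 5702 (fibroblast), 278 to 3814 (endothelial), 102 to 3353 (mural), 0 to 89 (border macrophage), 6 to 44 (pan-neuronal), 4 to 1675 (erythroid), 0 to 421 (skeletal muscle) and 0 to 1163 (cell cycle).

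Direction turned in 24 cases. After quantile normalisation fibroblast correlated with endothelial at -0.21 and with mural at -0.33, and slopes on the fibroblast level were -0.26 (H2az1), -2.05 (Lxn), -2.98 (St8sia1), 1.69 (Mmp3), 0.74 (Crx), 1.55 (Spef2) and 2.30 (Olfr30). With reference genes the last 4 were 3.17, 2.02, 3.01 and 2.52. On the erythroid level Ankrd34a was 0.0058 with reference genes, and Nrtn, Slc22a13 and Olfr555 were 0.40, 0.61 and 0.65, or 0.11, 0.30 and 0.27 with no allowance. On the skeletal muscle level Kdm6a was 0.0069 and Adgrl3 0.12 with reference genes, and 0.10 and 0.20 with no allowance.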
